A study of Mus musculus with 24 samples.

Results

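The comparison set the heart against the brain of mice on 16 of the 24 arrays of the series, 8 from each organ. The 8 arrays titled heart and the 8 titled brain were paired by the time in their titles, so that each heart array had 1 brain array taken at the same time. The study followed 5-week-old female C57BL/6 mice given an aqueous extract of Ephedra herba by mouth at 50 mg/kg, and it took brain, heart and liver at 1, 6, 12 and 24 hours and at 3, 5 and 10 days, beside untreated mice. Ephedra herba is a stem drug of traditional medicine whose alkaloids, ephedrine among them, act on adrenergic signalling. Each organ thus had 1 untreated array and 7 arrays of treated mice, with no replicate at any time. The sources used here do not say whether animals were pooled or dosed more than once, whether 1 mouse gave both organs, or at what hour of the day the organs were removed. No transgene or mutation is named in the labels, and both groups carry the same treatment at every time.

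The heart is chiefly striated muscle that contracts without rest. Its myocytes pull actin along myosin in sarcomeres, release calcium from the sarcoplasmic reticulum at each beat, and burn fatty acids in densely packed mitochondria, with creatine kinase buffering the ATP supply. The brain is built of neurons that signal through synapses, of astrocytes that clear transmitters and feed neurons, and of oligodendrocytes that wrap axons in myelin, and it runs chiefly on glucose. Many enzymes and channels have 1 gene form for muscle and another for nerve cells.

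Values are the deposited log2 intensities, called levels here. On this scale 0 lies near the median probe of each array, a level of about 0 or below marks a probe among the dimmer part of the array, and 1 unit is a 2-fold step. A difference is the heart level minus the brain level, averaged over the 8 pairs. Levels of different genes come from different probes and are not compared with each other. The number of arrays limits the precision, and since no label says that the arrays of an organ came from separate animals, a p-value here measures the spread among these 16 arrays and no more. The 8 arrays of an organ also span 7 treated times, so this spread holds any effect of the extract.

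The organ labels held against their markers, with limits. Of the heart markers with a probe, Myh6, Tnni3, Actc1, Myl2, Ryr2 and Nppa were above the array median on all 8 heart arrays. Of the brain markers, Mbp, Syt1, Gfap, Camk2a and Gad1 were above it on all 8 brain arrays. The probe of the neuronal gene Snap25 was below the median on every brain array, so it does not inform on neurons. That of albumin, Alb, was below it on every heart and brain array, though not on every liver array. Spearman correlations across all probes were 0.936 to 0.975 between heart arrays, 0.955 to 0.982 between brain arrays and 0.783 to 0.834 between a heart and a brain array. The median absolute deviation was close to 0.60 on each heart array and to 0.80 on each brain array, which means that the deposited values of the organs were not on 1 common spread.

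Some arrays held signal of genes that mark another organ. The 14 hepatocyte genes with a probe averaged 2.56, 3.02, 1.79 and 1.24 on the heart arrays of untreated mice, 1 hour, 6 hours and 10 days, and -0.05 to 0.62 on the other 4. On brain arrays they averaged 0.85 at 24 hours and 0.87 at 10 days, and -0.03 to 0.17 on the other 6. On liver arrays they averaged 5.99 to 8.25. Among these 14 genes, Alb, Fgb and Tat were below the array median on every heart and every brain array. The ventricular light chain Myl2, a sarcomere gene, read 2.93, 1.47 and 2.79 on the brain arrays of untreated mice, 5 days and 10 days, and -0.11 to 0.55 on the other 5. White fat genes averaged 2.35 in the untreated heart, and 0.29 to 0.88 in the hearts of the 7 treated times. Pituitary genes averaged 0.28 to 0.47 on the brain arrays of 1 hour, 12 hours and 3 days, and -0.75 to -0.22 on the other 5 brain arrays. The part of such signal in the results was not tested, and results that rest on these arrays are given with and without them.

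**Figure D1:**
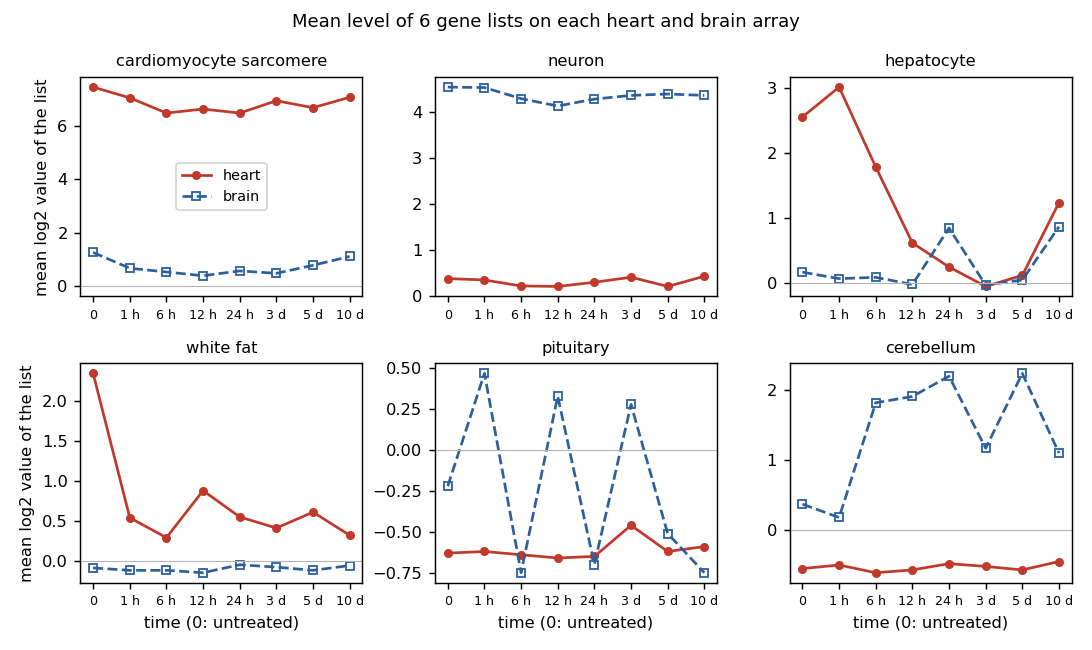
Mean deposited log2 value (vertical axis) of 6 gene lists on each array, by time (horizontal axis, evenly spaced), in heart (red circles) and brain (blue open squares), 1 array a point; lines only join the points. Sarcomere genes averaged 6.48 to 7.45 in heart against 0.40 to 1.27 in brain and neuron genes 0.21 to 0.43 against 4.12 to 4.53, while hepatocyte, white fat, pituitary and cerebellar genes varied from array to array.

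Most tested genes differed between the organs, many of them by less than 2-fold. By limma with the time as a block and Benjamini-Hochberg adjustment, 4363 of 10934 tested genes were higher in heart (39.9%) and 4358 were lower (39.9%), at an adjusted p under 0.05. With a difference of at least 2-fold as well, 1569 were higher in heart (14.3%) and 2035 lower (18.6%). At 16-fold the counts were 112 higher and 290 lower. The median difference over all tested genes was 0.03, with percentile 5 at -2.96 and percentile 95 at 2.02. Of the 2-fold genes, all 8 heart arrays lay above all 8 brain arrays for 1496 of 1569 and below them for 1981 of 2035. Genes picked for a large difference are prone to such separation. Over all 10934 tested genes the heart arrays lay above for 2468 (22.6%) and below for 2847 (26.0%). In 241 of the 2-fold higher genes brain was at or below the array median on every array, and in 548 of the 2-fold lower genes heart was. In single pairs, 1403 to 1817 genes were at least 2-fold higher and 1992 to 2244 at least 2-fold lower in heart.

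The balance of higher and lower genes depended on the scale. Of the called genes 50.0% were higher in heart as deposited, 55.2% after quantile normalization over the 16 arrays, and 68.1% (6012 higher, 2815 lower) after each array was set to the same median absolute deviation. For genes at least 2-fold apart these shares were 43.5%, 49.6% and 68.2%. The common scaling moved the median difference of all genes from 0.03 to 0.28, and differences of bright genes by more. Without the filter on dim genes the share was 64.9%. Dim probes read higher on heart arrays: percentile 25 of all probes was -0.460 to -0.455 there and -0.637 to -0.625 on brain arrays. Of the tested genes, 342 (3.13%) were above the array median on no heart or brain array. The part of this offset in small differences was not tested. With the mean of all probes of a gene in place of 1 probe, several differences were smaller by over 1.5 times, among them Rbfox3 at -3.45, Kif5a at -4.16, Ppp1r1b at -2.41, Atp2b2 at -3.01, Myocd at 2.21 and Lyz2 at 1.98.

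The 12 genes furthest above brain, with 1 sign at all 8 times, were Csrp3, Myh6, Actc1, Ckmt2, Myl3, Mb, Nppa, Ttn, Ckm, Hrc, Myl2 and Myoz2, with differences between 7.78 and 8.86. Myh6, the fast alpha heavy chain of cardiac myosin, read 8.11 to 9.36 in heart (median 8.58), against -0.56 to 0.50 in brain (median -0.36). The arrays of the organs lay far apart, with a difference of 8.86 (SE 0.15, adjusted p = 1.06e-13). Csrp3, a muscle LIM protein at the Z-disc, read 7.95 to 9.35 in heart (median 8.39), against -0.93 to 0.46 in brain (median -0.61). Its difference was also 8.86 (SE 0.14, adjusted p = 9.77e-14), and 2 further probes of the gene gave 8.44 and 6.68. Actc1, the cardiac form of sarcomeric actin, read 8.03 to 9.45 in heart (median 8.66), against -0.87 to 1.27 in brain (median -0.60), a difference of 8.83 (SE 0.21, adjusted p = 1.93e-12). In brain all 3 read highest on the untreated and 10 day arrays.

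Ttn encodes titin, the giant spring that runs from the Z-disc to the middle of the sarcomere. It read 7.36 to 8.52 in heart (median 7.78), against -0.73 to -0.06 in brain (median -0.53). Brain lay below the array median on all 8 arrays, and the difference was 8.30 (SE 0.12, adjusted p = 5.92e-14). Mb, the oxygen store myoglobin, read 7.99 to 9.30 in heart (median 8.56), against -0.36 to 1.40 in brain (median -0.16), a difference of 8.34 (SE 0.20, adjusted p = 2.01e-12). Nppa, the atrial natriuretic peptide, read 8.22 to 9.43 in heart (median 8.60), against -0.35 to 1.58 in brain (median -0.09), a difference of 8.34 (SE 0.16, adjusted p = 3.27e-13). Some of these genes sat at the top of the scale: 21 genes lay within 0.5 of the highest level on all 8 heart arrays, 4 of them among the 12 above. Whether the size of their differences was limited by the top of the scale was not tested.

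The genes with the most negative differences were mostly known from neurons and glia. With 1 sign at all 8 times, the 12 furthest below brain were Cplx1, Rasgrf1, Mbp, Aldoc, Zcchc18, Sult4a1, Eno2, Rbfox3, Dnajc6, Rasgrp1, Cldn11 and Vsnl1, with differences between -7.74 and -6.85. Cplx1, a complexin that clamps synaptic vesicles before release, read -0.52 to 1.02 in heart (median 0.00), against 7.46 to 8.34 in brain (median 7.91). The difference was -7.74 (SE 0.22, adjusted p = 7.02e-12) with no overlap. Rasgrf1, a calcium-dependent activator of Ras in neurons, read -0.59 to 0.43 in heart (median -0.22), against 7.13 to 7.68 in brain (median 7.41), a difference of -7.57 (SE 0.16, adjusted p = 5.74e-13). Of its 3 other probes 1 gave -7.09 and 2 gave -2.84 and -2.48; the other probes of Zcchc18 gave -1.54 and 0.09, and those of Rasgrp1 gave -3.21 and -0.44. Mbp, the myelin basic protein, read 0.05 to 1.76 in heart (median 0.87), against 8.02 to 8.58 in brain (median 8.33), a difference of -7.41 (SE 0.19, adjusted p = 3.07e-12). Its heart level was highest on the 3 day and 10 day arrays. Aldoc, the aldolase of astrocytes, read -0.61 to 0.18 in heart, against 6.64 to 7.35 in brain, a difference of -7.24 (SE 0.12, adjusted p = 1.06e-13). Rbfox3, the splicing factor known as the nuclear antigen NeuN, read -0.69 to -0.09 in heart (median -0.42), against 6.11 to 7.05 in brain (median 6.63), a difference of -6.99 (SE 0.13, adjusted p = 2.19e-13). Heart was below the array median on all 8 arrays for this gene, although a second Rbfox3 probe was dim in both organs, at -0.53 in heart and -0.63 in brain.

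**Figure D2:**
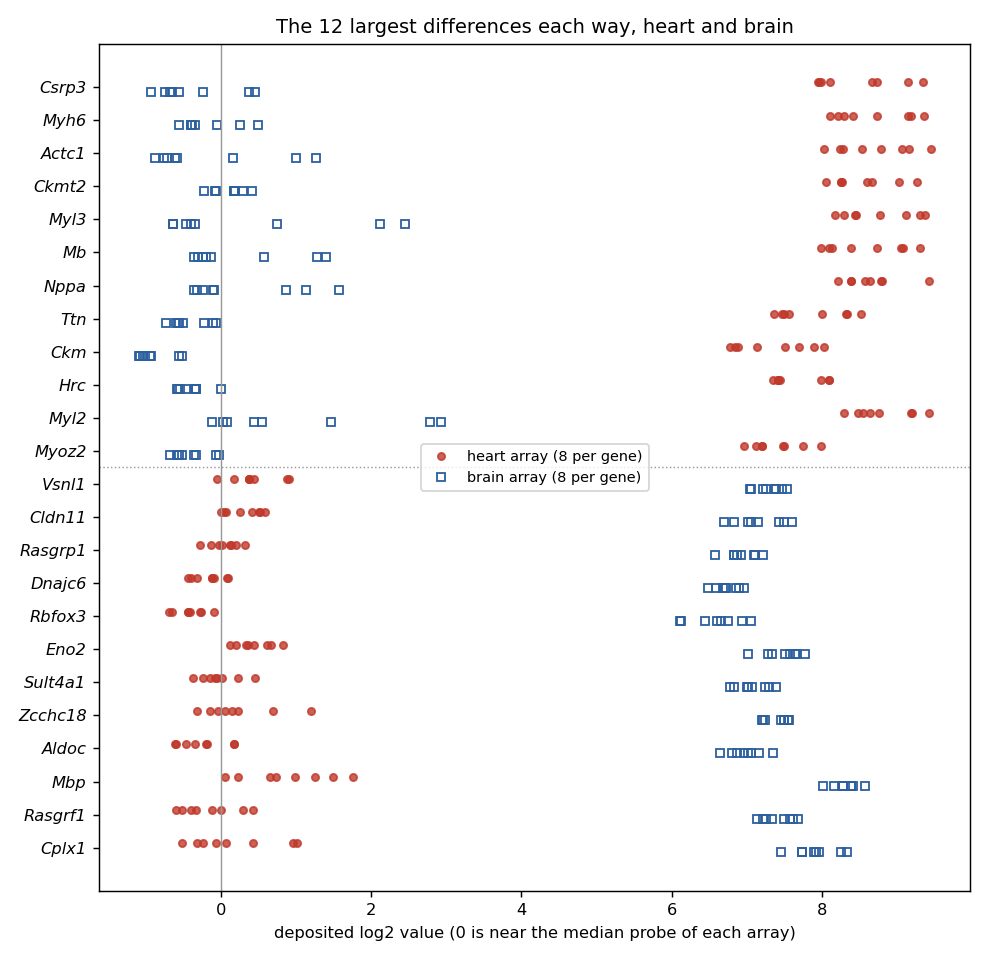
Deposited log2 values (horizontal axis) of the 12 genes with the largest difference each way (vertical axis), on the 8 heart arrays (red circles) and the 8 brain arrays (blue open squares). No gene's heart and brain arrays overlap; Myl2 and Myl3 reach 2.93 and 2.45 on single brain arrays.

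Bases upstream of 6 of these genes, and of Syn1, were read from the RefSeq promoter table of build GRCm38.p6. The 6 are among the genes furthest apart between the organs, but they are not simply the most extreme ones. Csrp3, Myh6, Ckmt2, Mb and Nppa in heart, and Mbp in brain, had larger differences than some of those shown and were left out. Each heart stretch shown holds a marked motif. The stretches are therefore selected examples and do not show how common such motifs are. In the first set of 3, from heart genes, capitals mark matches to the CArG box bound by serum response factor, to the site of MEF2 factors, and to CATTCC, the core of the MCAT element bound by TEAD factors, each on either strand. Positions count back from the first transcribed base, and the base before it is -1. The stretches are Actc1 from -150 to -1 (chr2:114052876-114053025, minus strand), Myl3 from -190 to -41 (chr9:110763488-110763637, plus strand) and Ttn from -190 to -41 (chr2:76982588-76982737, minus strand), all upstream of the annotated start.
Actc1: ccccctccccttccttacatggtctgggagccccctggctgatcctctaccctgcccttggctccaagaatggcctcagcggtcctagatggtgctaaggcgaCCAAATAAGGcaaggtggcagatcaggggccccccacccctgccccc
Myl3: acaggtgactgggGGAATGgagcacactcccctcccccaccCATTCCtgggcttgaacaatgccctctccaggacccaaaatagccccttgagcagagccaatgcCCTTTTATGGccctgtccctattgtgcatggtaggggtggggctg
Ttn: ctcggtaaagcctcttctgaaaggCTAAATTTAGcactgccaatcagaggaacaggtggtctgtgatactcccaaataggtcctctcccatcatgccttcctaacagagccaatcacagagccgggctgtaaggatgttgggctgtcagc
Actc1 held a CArG box at -47 to -38. Myl3 held one at -85 to -76 and CATTCC at -177 to -172 (reverse strand) and at -149 to -144. Ttn held a MEF2 site at -166 to -157.

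In the second set, from genes of brain, capitals mark each CG, the dinucleotide that is kept in CpG islands. The stretches run from -150 to -1 in Cplx1 (chr5:108550028-108550177, minus strand), Rasgrf1 (chr9:89909625-89909774, plus strand) and Aldoc (chr11:78322923-78323072, plus strand).
Cplx1: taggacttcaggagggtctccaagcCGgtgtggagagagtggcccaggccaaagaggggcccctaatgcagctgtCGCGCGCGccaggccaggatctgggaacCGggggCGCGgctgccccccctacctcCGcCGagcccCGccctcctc
Rasgrf1: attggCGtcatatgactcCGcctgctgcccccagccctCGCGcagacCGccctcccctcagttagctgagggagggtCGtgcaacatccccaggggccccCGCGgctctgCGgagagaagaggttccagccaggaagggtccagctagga
Aldoc: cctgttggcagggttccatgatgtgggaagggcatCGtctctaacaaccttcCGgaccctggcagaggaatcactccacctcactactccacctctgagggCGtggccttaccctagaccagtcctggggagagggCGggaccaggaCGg
In the full 250 bases before the start, CG occurred 15 times in Cplx1, 21 times in Rasgrf1 and 5 times in Aldoc, against 4 times in Actc1, 1 time in Myl3 and 4 times in Ttn. Syn1, the vesicle protein synapsin 1, is shown from -250 to -150 (chrX:20921068-20921168, minus strand). It was picked after its motif was seen, and capitals mark TTCAGCACC, the left part of the element bound by the neuronal gene repressor REST, at -232 to -224.
Syn1: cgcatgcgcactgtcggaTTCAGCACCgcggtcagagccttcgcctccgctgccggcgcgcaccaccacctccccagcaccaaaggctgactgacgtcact

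Such motifs were counted in the 250 bases before the start of all tested genes with a window, 8807 of 10934, taking the first listed window of a gene, both strands and any overlap. The CArG box and the MEF2 site were searched beside 5 short motifs. A CArG box was present in 7.87% of the 89 windows of genes at least 16-fold higher in heart, in 0.87% of the 230 windows of genes at least 16-fold lower, and in 1.23% of all windows of tested genes. A MEF2 site was present in 10.1%, 0.87% and 1.87% of the same sets, GATAAG, a site of GATA factors, in 14.6%, 4.78% and 4.93%, and CATTCC in 19.1%, 13.0% and 10.9%. AAGGTCA, a short site of nuclear receptors, was present in 3.37%, 3.04% and 3.09%, and TATAAA in 13.5%, 7.39% and 8.07%. TTCAGCACC was present in 0.0%, 0.87% and 0.273%. A ratio of observed to expected CG of at least 0.6 was reached by 16.9%, 47.8% and 60.4% of the same windows. For genes at least 2-fold apart the shares lay closer together, at 2.26% higher and 1.26% lower for the CArG box and at 2.74% and 1.64% for the MEF2 site. These are counts of letters in a window, without a test, and say nothing of binding.

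Sarcomere genes stood higher in heart as a group. Of 20 tested members, 19 were at least 2-fold higher and 0 lower, with a median difference of 6.58 against 0.03 over all tested genes. Tnni3, the cardiac inhibitory troponin, read 5.48 to 6.55 in heart (median 5.97), against -0.47 to -0.18 in brain (median -0.29). The organs did not overlap, and the difference was 6.29 (SE 0.11, adjusted p = 2.03e-13). The exception was Tpm1, alpha-tropomyosin, which non-muscle cells also make in other splice forms: it read 3.42 to 3.86 in heart (median 3.57), against 3.85 to 4.26 in brain (median 4.04). This small difference of -0.46 (SE 0.06, adjusted p = 8.65e-06) turned to 0.68 once both organs were set to the same spread. Without the untreated, 5 day and 10 day pairs, whose brain arrays held muscle signal, the list still counted 19 of 20 with a median of 6.54.

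The calcium cycle of the myocyte was higher in heart by 14 of 20 members, 0 lower, with a median difference of 1.78. Hrc, a calcium-binding protein of the sarcoplasmic reticulum, read 7.35 to 8.10 in heart (median 7.43), against -0.58 to 0.00 in brain (median -0.40), a difference of 8.05 (SE 0.08, adjusted p = 1.09e-14). Pln, the phospholamban that restrains the calcium pump, read 4.29 to 6.13 in heart (median 5.73), against -1.01 to -0.56 in brain (median -0.78), a difference of 6.21 (SE 0.18, adjusted p = 9.20e-12). Casq2, which stores calcium in the reticulum, differed by 5.64, and Sln, the atrial regulator of the pump, by 5.84. The pump itself, Atp2a2, is used by both organs: it read 8.11 to 9.43 in heart (median 8.62), against 6.81 to 7.34 in brain (median 7.11), a difference of 1.63 (SE 0.15, adjusted p = 6.34e-07). The ryanodine receptor Ryr2 differed by only 1.43, with its heart level at 0.70 to 1.28, and the L-type channel Cacna1c by 0.36, with overlapping arrays.

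Transcription factors of the heart were higher in 12 of 17 members and lower in 1, with a median of 1.37. Gata6, a zinc finger factor of heart and gut, read 4.54 to 4.92 in heart (median 4.78), against -0.90 to -0.43 in brain (median -0.60). This was among the tightest differences of the list, 5.36 with an SE of 0.07 (adjusted p = 3.44e-14). Myocd, the coactivator of serum response factor in muscle, differed by 4.19, and the stretch-responsive cofactor Ankrd1 by 7.47. Mef2c went the other way: it read 3.03 to 4.29 in heart (median 3.34), against 4.92 to 5.77 in brain (median 5.28), a difference of -1.91 (SE 0.08, adjusted p = 3.27e-10). MEF2C also serves cortical neurons and microglia. Of its 2 other probes, 1 gave -1.76 and 1 gave 0.42, so the direction depended on the probe, and at a common spread the difference was -0.62. Atrial genes were higher in 6 of 10 members and lower in 1, beside 14.3% and 18.6% of all tested genes. Lists share members: of the higher atrial genes, Myl4, Myl7, Sln and Tbx5 were also counted in the lists above. The atrial light chain Myl7 differed by 6.21 but spread over the heart arrays, from 3.44 at 1 hour and 4.06 at 3 days to 6.42 in untreated mice, and Sln was lowest on the same 2 arrays, at 4.42 and 4.73.

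Genes of fatty acid uptake and oxidation were higher in heart, with 24 of 25 members at least 2-fold higher, 0 lower and a median difference of 3.89, over a range of 0.97 to 6.39. Cpt1b, the muscle form of the enzyme that admits fatty acids into mitochondria, read 6.08 to 6.87 in heart (median 6.41), against -0.18 to 0.15 in brain (median 0.05). The difference was 6.39 (SE 0.12, adjusted p = 2.48e-13), with no overlap. Lpl, which frees fatty acids from blood lipoproteins, differed by 5.52 (SE 0.16, adjusted p = 7.34e-12), and Acaa2, the last enzyme of the oxidation spiral, by 4.94 (SE 0.15, adjusted p = 1.67e-11). Pdk4, which shuts glucose carbon out of the citric acid cycle, read 4.29 to 8.06 in heart (median 5.51), against 0.72 to 1.28 in brain (median 0.91), a difference of 4.91 with a wider SE of 0.38. The regulator Ppargc1a differed less, by 1.41 (SE 0.08, adjusted p = 5.94e-09).

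The citric acid cycle was higher in heart in 15 of 17 members and lower in 1, with a median of 2.11. Idh2, the mitochondrial isocitrate dehydrogenase that makes NADPH, read 4.98 to 6.80 in heart (median 6.55), against 0.64 to 2.44 in brain (median 1.64), a difference of 4.63 (SE 0.10, adjusted p = 8.65e-13). Fumarase, Fh1, differed by 2.52 and the oxoglutarate dehydrogenase Ogdh by 2.63. Idh3b, a subunit of the NAD-dependent isocitrate dehydrogenase, was the lower member: it read 3.75 to 4.33 in heart (median 3.93), against 5.26 to 5.95 in brain (median 5.78), a difference of -1.74 (SE 0.09, adjusted p = 2.03e-09). At a common spread it stood at -0.30, and 0 of 17 were then 2-fold lower. Of 33 respiratory chain and ATP synthase genes, 30 were at least 2-fold higher in heart and 0 lower. Their median difference was 1.78 and their range 0.39 to 2.65. The list averaged lowest in brain on the 12 hours array, at 4.43, and without that pair the median was 1.70. Cyc1, the cytochrome of complex III, read 6.86 to 8.03 in heart (median 7.20), against 3.89 to 5.14 in brain (median 4.73), a difference of 2.65 (SE 0.11, adjusted p = 2.39e-10).

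Glycolysis held members on both sides, as did all tested genes, of which 14.3% were at least 2-fold higher in heart and 18.6% lower. Of 21 glycolysis members 7 were at least 2-fold higher in heart, 6 were lower, and the median was 0.15. This depended on the scale: the median was -0.03 after quantile normalization, and at a common spread 12 of 21 were higher, 4 lower and the median 2.15. Muscle and nerve forms lay on opposite sides. Eno3, the muscle enolase, read 7.47 to 8.33 in heart (median 7.93), against 0.39 to 1.07 in brain (median 0.71), a difference of 7.19 (SE 0.09, adjusted p = 3.48e-14). Eno2, the neuronal enolase, read 0.12 to 0.83 in heart (median 0.40), against 7.02 to 7.78 in brain (median 7.54), a difference of -7.03 (SE 0.12, adjusted p = 1.63e-13). The insulin-responsive glucose carrier Slc2a4 differed by 5.20 (SE 0.10, adjusted p = 2.83e-13). The neuronal carrier Slc2a3 differed by -3.90 (SE 0.08, adjusted p = 3.20e-13), and Slc2a1, the carrier of the blood-brain barrier, by -2.24 (SE 0.11, adjusted p = 1.95e-09). Hk2, the hexokinase of insulin-sensitive tissue, differed by 5.34, and Pgam2, the muscle phosphoglycerate mutase, by 5.71.

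Tissue forms were followed in 33 families chosen from textbook knowledge, of which 25 had both members tested. The form known from heart or muscle was at least 2-fold higher in heart in 18 of 25 families, and 2-fold lower in 0. The form known from brain, or the widespread form, was at least 2-fold lower in heart in 18 and 2-fold higher in 1. Both held in 12 families. Over all tested genes 14.3% were at least 2-fold higher in heart and 18.6% lower. The counts are those of the deposited scale: at a common spread Ckb stood at -0.67 and Cox6a1 at 0.80, both no longer 2-fold lower. Each gene was read only against itself in the other organ, since different probes have no common scale. Creatine kinase had the widest pair: Ckmt2, the sarcomeric mitochondrial form, differed by 8.44 (95% confidence interval 8.13 to 8.74), and Ckmt1, the form of brain mitochondria, by -6.35 (-6.61 to -6.10). In the cytosolic pair, Ckm stood at 8.24 (7.96 to 8.53) and Ckb at -2.78 (-3.15 to -2.41), the last at -0.67 once both organs had a common spread. Among calcium transporters, the exchanger Slc8a1 differed by 2.52 (2.30 to 2.75) and its neuronal relative Slc8a2 by -2.02 (-2.24 to -1.81), while the plasma membrane pump Atp2b2 differed by -5.03 (-5.25 to -4.81). The 1 family whose brain form was also at least 2-fold higher in heart was glycogen phosphorylase, with Pygm at 3.74 (3.50 to 3.99) and Pygb at 1.97 (1.75 to 2.19).

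Cytochrome c oxidase, the last complex of the respiratory chain, has tissue forms within a single enzyme. Cox6a2, the striated muscle form of subunit VIa, read 8.16 to 9.42 in heart (median 8.64), against 2.00 to 3.91 in brain (median 3.05), a difference of 5.62 (SE 0.15). Cox7a1 differed by 6.93 (6.60 to 7.25) and Cox8b by 7.50 (7.29 to 7.71), both forms of contractile and brown fat tissue. The widespread forms differed less: Cox6a1 by -1.19 (-1.54 to -0.84), Cox8a by -0.77 (-1.12 to -0.42) and Cox7a2 by 0.89 (0.63 to 1.15). For the first pair of these the direction depended on the scale, since at a common spread Cox6a1 stood at 0.80 and Cox8a at 1.33. The direction of Cox6a2, Cox7a1 and Cox8b held under all scalings run, and over all 22 alternatives Cox6a2 lay at 5.41 to 7.54, Cox7a1 at 6.83 to 8.69 and Cox8b at 7.22 to 9.11.

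**Figure D3:**
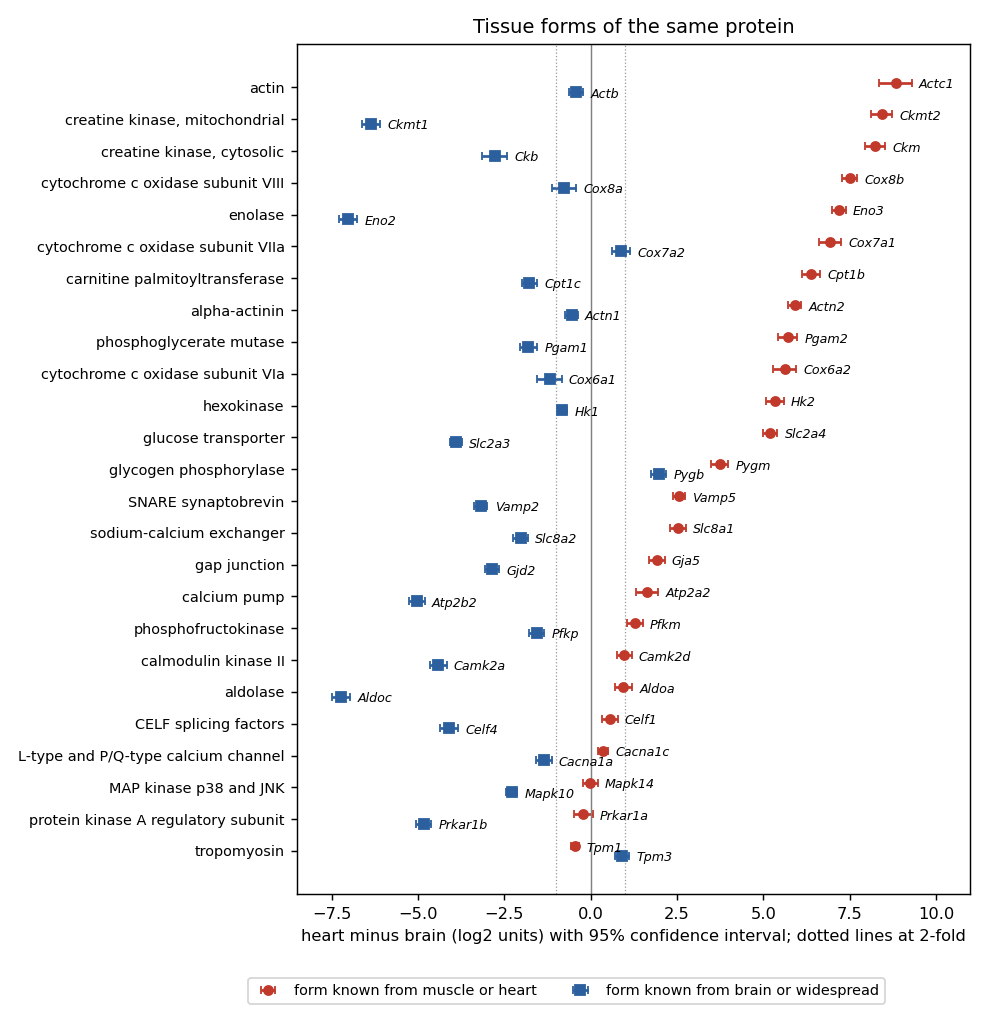
Heart minus brain difference in log2 units (horizontal axis) with its 95% confidence interval for both members of 25 protein families (vertical axis): the form known from muscle or heart (red circles) and the form known from brain or widespread (blue squares). On the deposited scale shown, in 12 families the red point lies beyond 2-fold on the heart side and the blue point beyond 2-fold on the brain side. Tropomyosin and glycogen phosphorylase are among those that did not split this way.

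Genes of neurons were lower in heart almost without exception. Of 27 neuron genes tested, 26 were at least 2-fold lower and 0 higher, with a median of -4.45; the 1 that was not called was Tubb3, at 0.03, on a dim probe. Of synaptic vesicle genes 20 of 21 were lower (median -5.08), of postsynaptic density genes 13 of 13 (median -3.28), of ion channel genes 16 of 18 (median -2.58) and of neuropeptide genes 15 of 16 (median -3.19), with 0 higher in each. Syn1 read -0.60 to 0.24 in heart (median -0.20), against 6.17 to 7.25 in brain (median 6.54), a difference of -6.85 (SE 0.11, adjusted p = 9.22e-14). Syt1, the calcium sensor of vesicle release, read -0.50 to 0.24 in heart (median -0.30), against 5.93 to 6.74 in brain (median 6.37), a difference of -6.59 (SE 0.11, adjusted p = 9.44e-14). Ppp1r1b, a phosphatase inhibitor of dopamine-responsive neurons, differed by -5.05 and the activity-regulated gene Arc by -3.70. Arc spread over the brain arrays, from 2.63 to 5.19, and was flat in heart, at -0.06 to 0.17.

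Transmitter genes followed. Glutamate and GABA receptor genes were lower in 11 of 15 members and higher in 0, with a median of -1.78; 16 of the probes on this list were below the array median on every heart array and 6 on every brain array, so that several subunits were not informative. Gria2, an AMPA receptor subunit, read -0.21 to 0.42 in heart (median 0.16), against 5.77 to 6.26 in brain (median 5.98), a difference of -5.86 (SE 0.08, adjusted p = 4.19e-14). Of genes for GABA and the modulatory transmitters, 11 of 15 were lower and 1 was higher. Slc32a1, which loads GABA into vesicles, differed by -6.23 and Gad1, which makes GABA, by -6.04. The higher gene was Dbh, the enzyme that turns dopamine into noradrenaline in sympathetic nerves. It read 0.31 to 1.14 in heart (median 0.69), against -0.71 to -0.32 in brain (median -0.54), a difference of 1.26 (SE 0.11, adjusted p = 5.00e-07). The peptides Cck and Sst differed by -6.14 and -6.13, and heart was below the array median on all 8 arrays for both.

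Glial genes were also lower in heart. Of 17 oligodendrocyte and myelin genes, 15 were at least 2-fold lower in heart and 0 higher (median -4.28), with Olig1, a factor of the lineage, at -6.68 and Mag, a myelin adhesion protein, at -6.14. Of 16 astrocyte genes, 11 were lower and 0 higher (median -1.79). Slc1a3, a glutamate carrier of astrocytes, read 0.79 to 2.94 in heart (median 1.25), against 6.62 to 7.52 in brain (median 7.31), a difference of -5.74 (SE 0.20, adjusted p = 5.78e-11). Gfap, their filament protein, read -0.67 to -0.34 in heart (median -0.46), against 1.21 to 1.96 in brain (median 1.38), a difference of -1.91. Gja1, the connexin of both heart muscle and astrocytes, read 6.67 to 7.65 in heart (median 7.14), against 5.96 to 6.95 in brain (median 6.32). The arrays of the organs overlapped for it, and the difference was 0.81 (SE 0.20, adjusted p = 0.00258), with an adjusted p of up to 0.0843 over the alternatives run.

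Microglia and macrophage genes lay on both sides, as did all tested genes, of which 14.3% were at least 2-fold higher in heart and 18.6% lower. Of 19 microglia and macrophage genes, 5 were at least 2-fold higher in heart, 2 were lower and 4 were not called (median 0.43), and at a common spread 10 were higher, 2 lower and the median was 1.07. The lower genes were Cx3cr1, the fractalkine receptor of microglia, at -1.96 (SE 0.20, adjusted p = 1.96e-06), and Trem2 at -1.36 (SE 0.17, adjusted p = 8.46e-06). Among the higher were Lyz2, lysozyme of macrophages, at 3.61 (SE 0.09, adjusted p = 3.24e-12), the mannose receptor Mrc1 at 2.05 and the haemoglobin scavenger receptor Cd163 at 1.94. In a bulk sample, fewer cells of a type and less RNA per cell cannot be told apart. Antigen presentation genes were higher in heart in 11 of 14 members and lower in 0 (median 1.45). The class II gene H2-Ab1 read 3.65 to 4.57 in heart (median 4.03), against -0.01 to 0.97 in brain (median 0.35), a difference of 3.68 (SE 0.10, adjusted p = 6.39e-12).

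Vessel and matrix genes were higher in heart. Of 19 endothelial genes, 15 were at least 2-fold higher and 3 lower (median 2.18). Cdh5, the junction protein of endothelium, read 1.93 to 3.49 in heart (median 2.46), against -0.37 to 0.25 in brain (median -0.19), a difference of 2.69 (SE 0.11, adjusted p = 2.66e-10). Aqp1, a water channel of capillaries outside the brain, differed by 5.45 (SE 0.09, adjusted p = 9.22e-14). The lower genes, named as the whole of that count, were Itm2a at -1.46, the glucose carrier Slc2a1, and Slco1c1, the thyroxine carrier of the blood-brain barrier. Slco1c1 read -0.61 to -0.39 in heart (median -0.48), against 2.72 to 3.23 in brain (median 2.88), a difference of -3.44 (SE 0.08, adjusted p = 1.71e-12). Of 24 fibroblast and matrix genes, 21 were higher and 0 lower (median 2.60), with the proteoglycans Lum at 4.11 and Dcn at 3.64, and of 12 smooth muscle and pericyte genes 8 were higher and 0 lower (median 1.62).

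Genes of general upkeep lay near the middle. Of 18 ribosomal protein genes and of 21 proteasome genes, 0 were 2-fold apart in either direction, with medians of 0.30 and 0.27. These counts depended on the scale, since at a common spread 16 of 18 and 16 of 21 were at least 2-fold higher in heart. Both lists averaged lowest in brain on the 12 hours array, at 4.66 and 3.50. Tubulins and motors went with the brain: 16 of 22 were lower in heart and 1 higher (median -2.13). Kif5a, a kinesin of axonal transport, differed by -6.82 (SE 0.12, adjusted p = 1.46e-13), and Tubb6, the higher one, by 2.57 (SE 0.07, adjusted p = 5.08e-12). Of 18 RNA-binding genes, 7 were lower and 2 higher, beside 18.6% lower and 14.3% higher over all tested genes. Among the lower, Elavl2, Elavl3, Elavl4, Rbfox3 and Celf4 were also counted as neuron genes. The 2 higher genes were Rbm38 at 4.57 and Rbm24, a splicing factor of muscle, at 1.77.

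Ephedrine acts on the adrenergic system, so its genes were listed as well. Of 21 listed, 12 had a probe and 8 were tested. Of these, 2 were at least 2-fold higher in heart and 1 lower, beside 14.3% and 18.6% of all tested genes. Adcy6, a main adenylyl cyclase of the heart, read 4.17 to 5.27 in heart (median 4.65), against 1.52 to 2.59 in brain (median 1.90), a difference of 2.65 (SE 0.07, adjusted p = 2.15e-12), while its 2 other probes, dim in both organs, gave 0.53 and 0.62. Maob, which breaks down monoamines, differed by 1.21 (SE 0.07, adjusted p = 5.33e-09). The receptor Adra2c, which restrains transmitter release, read 0.09 to 0.34 in heart (median 0.22), against 1.10 to 1.52 in brain (median 1.22), a difference of -1.01 (SE 0.06, adjusted p = 9.94e-09).

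**Figure D4:**
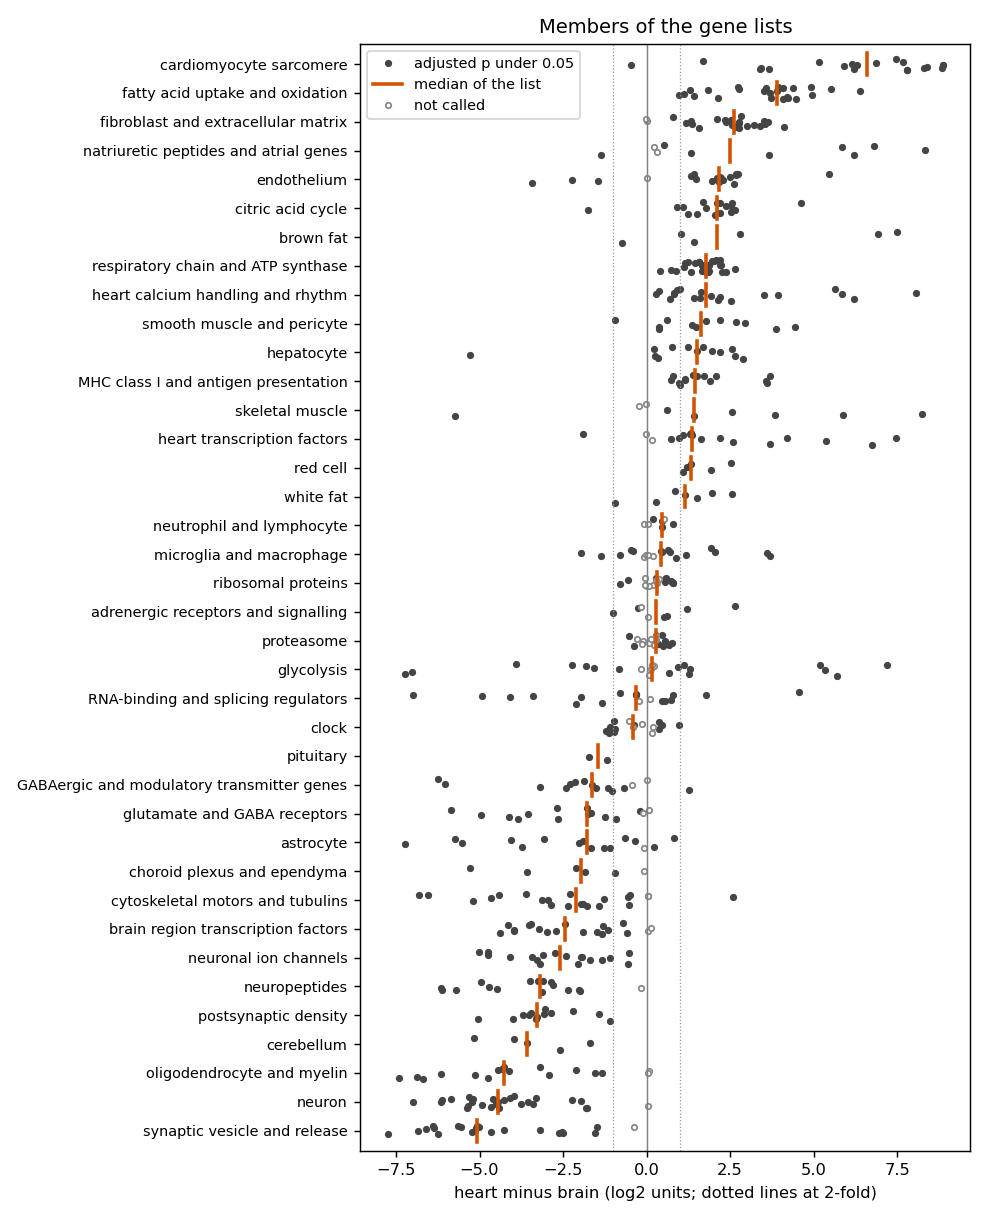
Heart minus brain difference in log2 units (horizontal axis) of every tested member of 38 gene lists (vertical axis, ordered by median): filled points have an adjusted p under 0.05 by limma, open points do not, and orange bars are medians. Sarcomere genes lie highest with a median of 6.58 and synaptic vesicle genes lowest with a median of -5.08, against 0.03 over all tested genes.

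Lists of tissues other than heart and brain have to be read beside the arrays that carried them. Of 13 hepatocyte genes, 8 were at least 2-fold higher in heart and 1 lower (median 1.51), but without the 5 times at which a heart or brain array held liver signal the count was 4 of 13 and the median 0.30. Apoa2, a lipoprotein of liver, read 0.46 to 6.84 in heart (median 2.72), against -0.01 to 2.48 in brain (median 0.42), with overlapping arrays. Its difference of 2.21 (SE 0.74, adjusted p = 0.0165) was 0.76 without those times, and the adjusted p by limma ranged up to 0.182 over the alternatives run. The lower gene was Ttr, made by liver and choroid plexus, which read 0.48 to 4.70 in heart (median 1.86), against 7.22 to 8.27 in brain (median 7.38), a difference of -5.30. Of 7 white fat genes 4 were higher in heart, and 3 without the untreated pair. The adipokine Adipoq read 4.28 in the untreated heart and 0.22 to 1.85 at the 7 treated times, against -0.86 to -0.42 in brain.

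Red cell genes were higher in heart in 5 of 5 members (median 1.34), with Alas2, the enzyme of haem synthesis in red cell precursors, at 2.53 (SE 0.20, adjusted p = 1.48e-07). Of 9 skeletal muscle genes 5 were at least 2-fold higher in heart and 1 lower, beside 14.3% and 18.6% of all tested genes. Among the higher were Ckm, already counted as a heart form, at 8.24, Myl1 at 5.89 and Acta1 at 3.83. Actn3 at -0.03 and Atp2a1 at -0.22 were not called. The probes of Myh1, Tnnt3 and Tnnc2 were below the array median on every heart array. Pvalb, the calcium buffer of fast muscle fibres and of a class of inhibitory neurons, was the lower one: it read 0.44 to 1.10 in heart (median 0.83), against 5.95 to 7.38 in brain (median 6.27), a difference of -5.72 (SE 0.17, adjusted p = 8.75e-12). Cerebellar genes were lower in 5 of 5 and depended on the brain array. Pcp2, a Purkinje cell gene, read -0.01 and -0.77 on the brain arrays of untreated mice and 1 hour, and 2.86 to 5.32 on the other 6.

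Whether the difference between the organs moved with time was asked with the 8 differences, 1 a time. Treated against untreated, limma found 0 of 10934 genes that rose (0.0%) and 2 that fell (0.0183%); before adjustment 293 genes had a p under 0.05. Both were fat genes of heart: the difference of Cidec, which coats fat droplets, fell by 3.20 (SE 0.38, adjusted p = 0.0296) and that of Adig, adipogenin, fell by 2.30 (SE 0.26, adjusted p = 0.0296). Cidec read -0.50 to 0.66 on the 7 treated heart arrays and 2.92 on the untreated one, against -1.03 to -0.67 in brain. The untreated side is 1 pair, assumed to vary like the treated ones, whose heart array held the fat signal, and quantile normalization or leaving out the pair of 1 hour, 24 hours, 5 days or 10 days left 0 genes. Neither gene passed in all 7 fits that leave out 1 treated pair, so the values describe that 1 heart array. The slope of the difference on log2 hours over the 7 treated times gave 0 rises and 0 falls (0.0% each; lowest adjusted p = 0.826, 288 genes at an unadjusted p under 0.05).

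The arrays of 6 hours to 5 days were also set against those of untreated mice, 1 hour and 10 days. Earlier results of these data had put this split forward from the shape of the values, so a test across it is no independent support and the values below are a description. In heart the 95th percentile of all probes was 4.36 to 4.64 on the first set and 4.72 to 4.89 on the second, so array shape and time cannot be told apart. By limma 22 genes lay above the adjusted threshold in the upward direction (0.201%) and 54 in the downward one (0.494%), with 1791 at an unadjusted p under 0.05. Leaving out 1 pair gave 2 genes without the untreated pair or the 1 hour pair, up to 608 without the 3 day pair. In 40 of the 76 genes the heart moved more and in 36 the brain, and 2 of the 76, Per2 and Angptl4, passed in all 8 fits that leave out 1 pair.

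Of 16 clock genes tested, 5 were among the 76: Per2, Dbp, Ciart and Tef upward and Arntl downward, while 11 did not pass. Per2, a repressor of the clock, read 3.16 to 4.21 on the 5 heart arrays of 6 hours to 5 days, against 1.64, 1.93 and 1.93 on those of untreated mice, 1 hour and 10 days. In brain it read 3.41 to 3.92 at all 8 times. Its heart minus brain difference was -0.25 to 0.47 at the first 5 times and -1.79, -1.76 and -1.62 at the other 3, and its mean over all 8 times, -0.52, turned to 0.50 at a common spread. Dbp, an output factor of the clock, read 5.88 to 6.29 in heart at 6 hours to 5 days, against 3.72, 4.52 and 4.07 at the other times; its mean difference of -0.40 turned to 1.26 at a common spread, as that of Tef, -0.99, turned to 0.24. Arntl, the activator that peaks opposite to these genes, read -0.31 to 0.66 in heart at 6 hours to 5 days, against 0.80, 0.88 and 1.04. Of the 8 fits that leave out 1 pair, Dbp passed in 5, Tef in 4, and Ciart and Arntl in 6 each. The hour of tissue collection is not given, so time of day and time after dosing cannot be told apart.

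Among the other genes, Pdk4 read 4.29 to 5.90 in heart at 6 hours to 5 days, against 7.39, 8.06 and 6.80 at the other times, and it passed in 6 of the 8 fits. The change of the difference was -1.77 for Angptl4, a brake on lipoprotein lipase that was picked after its values were seen, and 1.14 for Pln, which passed in 5 of the 8 fits. For Slc41a3 and Spon2, also among the 5 largest falls, it was -2.51 and -1.98, and each passed in 6 of the 8 fits. Cbln1, a synapse organizer of cerebellar granule cells, read 4.61 to 6.63 in brain at 6 hours to 5 days, against 3.83, 3.67 and 4.66 at the other times. The change of the difference was -2.23 for Cbln1 and -2.72 for En2, a cerebellar homeobox gene, beside the varying signal of Pcp2 on the same brain arrays, and each passed in 3 of the 8 fits. Of sarcomere, citric acid cycle, respiratory chain, synaptic vesicle and myelin genes, 0 of 20, 0 of 17, 0 of 33, 0 of 21 and 0 of 17 passed in either direction. Over all tested genes only 0.201% passed upward and 0.494% downward, so lists of this size cannot show whether they moved less than other genes.

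**Figure D5:**
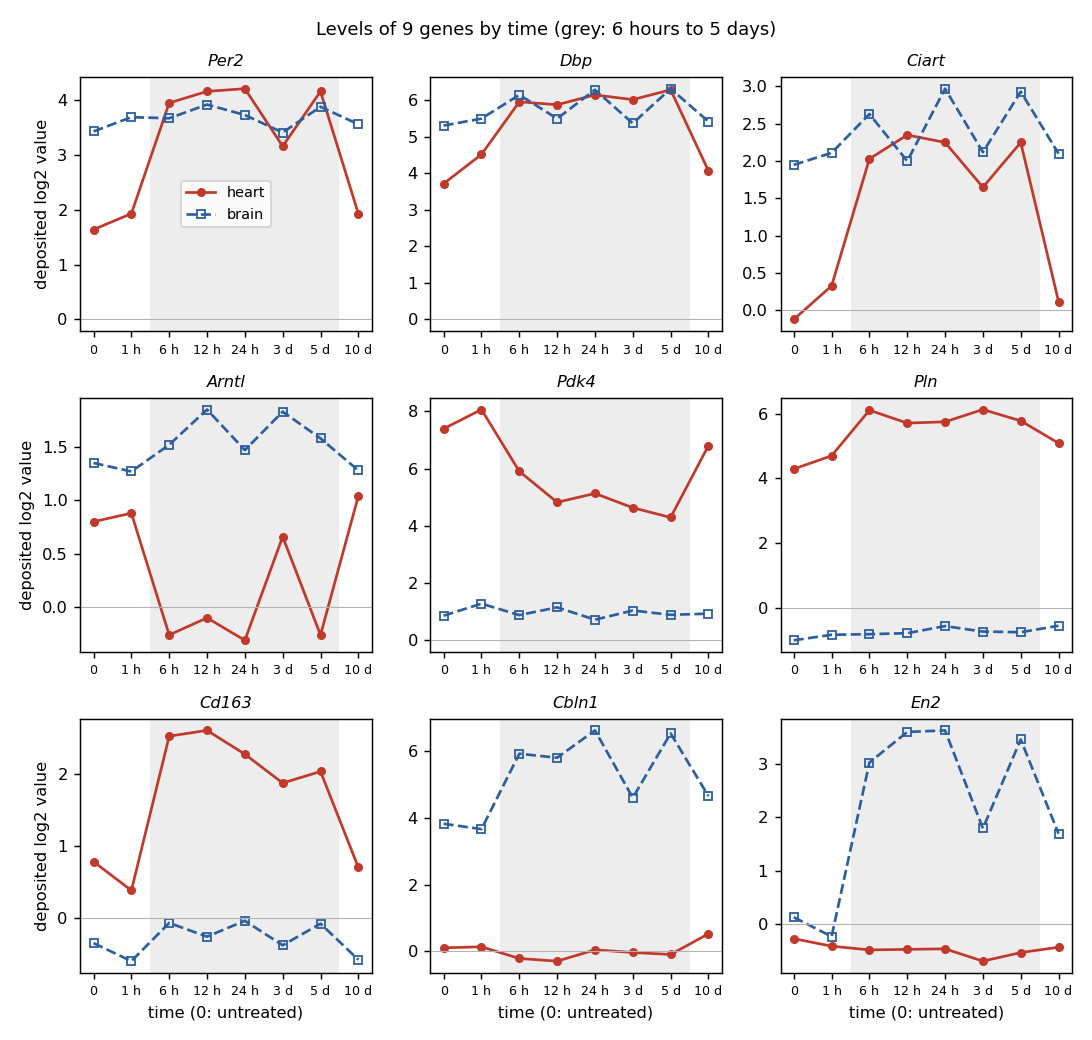
Deposited log2 values (vertical axis) of 9 genes by time (horizontal axis, evenly spaced), in heart (red circles) and brain (blue open squares), 1 array a point; lines only join the points and grey marks 6 hours to 5 days. The heart level of Per2 is 3.16 to 4.21 inside the grey band and 1.64 to 1.93 outside it, while its brain level stays at 3.41 to 3.92.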

How the data were processed

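Gene expression was measured on Illumina bead arrays, 1 for each organ and time. The authors deposited processed log2 values, centred near 0 on each array; the sources used here name neither the normalization nor the log base, and base 2 was assumed. A deposited table of values that were not normalized has 24 value columns that could not be matched to samples by name, and it was not used.

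Of 25697 probes, 23141 carried 1 gene symbol, and the probe with the highest mean over the 24 arrays stood for each of 16110 genes. A gene was tested if it lay above the array median on at least 4 of the 24 arrays, which left 10934. R 4.3.3 and limma 3.58.1 fitted heart against brain on 16 arrays with the time as a block (lmFit, eBayes), with Benjamini-Hochberg adjustment over all tested genes. Called means an adjusted p under 0.05. Array numbers in the labels give no replicates; the pairing comes from the time in the titles. Contrasts over time used the 8 differences. The fit was tested on simulated data.

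Named genes were the 12 largest differences each way, up to 4 members of each gene list in its main direction and 2 in the other, tissue-form pairs, and up to 5 genes each way of each contrast over time; others are said to be chosen after their values were seen or complete a small count. The gene lists, members and the split of the times were chosen with earlier results of these data known. Alternatives were other scalings, filters, probe rules, sets of arrays, no block, and leaving out each pair.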

Additional observations from a re-analysis of the deposited data

Results flagged for a closer look

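Among the named genes 240 groups of 8 arrays were looked at, and in 20 of them (8.33%) 1 array stood apart from the other 7; chance flags about 1 in 20 groups. Of these, 3 were fat genes on the untreated heart array: Cidec at 2.92 (others -0.50 to 0.66), Adipoq at 4.28 (others 0.22 to 1.85) and Adig at 2.74 (others -0.06 to 0.59). The glutamate carrier Slc1a3 read 2.94 on the same array (others 0.79 to 1.43) and the exchanger Slc8a2 read -0.25 (others -0.61 to -0.51).

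The brain array of 12 hours stood apart for several genes of different roles. It was low for Cck at 4.42 (others 5.35 to 6.15), Sst at 4.76 (others 5.60 to 5.86), Cox6a1 at 6.08 (others 7.17 to 7.77), Cox8a at 6.48 (others 7.18 to 7.72), Idh3b at 5.26 (others 5.68 to 5.95), Dcn at 3.11 (others 3.67 to 4.03), Rbm24 at -0.40 (others -0.13 to 0.05) and Alb at -1.07 (others -0.94 to -0.84). It was high for Gfap at 1.96 (others 1.21 to 1.52). Some whole lists were also low on this array. Respiratory chain genes averaged 4.43 (others 5.01 to 5.39), ribosomal protein genes 4.66 (others 5.47 to 5.78) and proteasome genes 3.50 (others 4.07 to 4.33). Glutamate and GABA receptor genes were high, at 1.39 (others 1.16 to 1.23). The brain array of 1 hour was high for Adra2c at 1.52 (others 1.10 to 1.29) and low for Cpt1b at -0.18 (others 0.01 to 0.15).

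Single arrays also stood apart for Hrc, which read 0.00 on the untreated brain array (others -0.58 to -0.33), for Adig, which read -0.54 on the brain array of 10 days (others -0.98 to -0.78), for Cx3cr1, which read 0.20 on the heart array of 1 hour (others 0.63 to 0.96), and for Tubb3, which read 0.44 on the heart array of 3 days (others -0.15 to 0.07).

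By limma on the 8 differences, the change over time stood apart between heart and brain for the 13 genes listed here, among others such as Slc41a3 and Spon2. Treated against untreated, the heart minus brain difference changed by -3.20 for Cidec and by -2.30 for Adig; the untreated side is 1 pair, and neither gene passed in all 7 fits that leave out 1 treated pair. The split of 6 hours to 5 days against the other times was drawn from values of these same arrays, so its values are a description. Across it the difference changed by 1.93 for Per2, 1.52 for Ciart, 1.44 for Dbp, 1.30 for Cd163, 1.14 for Pln and 0.95 for Tef. It changed by -2.72 for En2, -2.38 for Pdk4, -2.23 for Cbln1, -1.77 for Angptl4 and -1.32 for Arntl.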

How the results depend on the processing

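The counts of genes higher and lower in heart moved mainly with the scale and the filter. Without the detection filter 8414 genes were higher in heart, against 4363 with it. At a common median absolute deviation 2815 were lower, against 4358, and 3032 were at least 2-fold higher, against 1569. Leaving out each pair gave 4146 to 4314 higher and 4234 to 4415 lower. Without the replicate pairing by time, 4067 were higher and 4102 lower. Treated against untreated, 2 genes as deposited became 0 after quantile normalization and 0 with the filter on all 8 arrays, and 0 to 4 when 1 pair was left out. For 6 hours to 5 days against the other times, 76 genes became 173 at a common spread and 2 to 608 when 1 pair was left out; the highest count was without the 3 day pair. The slope gave 0 genes under every alternative run.

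Of 2611 fits of named genes under the alternatives, 2589 were counted as unchanged, 13 lost the call, 3 gained it and 6 turned round. These 6 do not cover every change of sign in genes that were not called. Per2 stood at -0.52 as deposited and at up to 0.50 over the alternatives, and Tubb3 at 0.03 and down to -0.04. At a common spread Cox6a1 stood at 0.80, Cox8a at 1.33, Dbp at 1.26, Tpm1 at 0.68 and Tef at 0.24, and Tef also stood at 0.24 with the mean of its probes. The settings without the pairs that held muscle signal in brain, or liver signal in heart or brain, were chosen after seeing the data. Among 586 genes at least 2-fold higher in heart that had further probes, all of these passed 2-fold the same way in 238 (40.6%) and at least 1 did in 355 (60.6%); among 707 lower genes these counts were 219 (31.0%) and 379 (53.6%). No tissue and time had a second array, so the p-values cannot separate animals from arrays.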
